A study of Mus musculus with 9 samples.

Results

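R2 and R1 are the Flt3+ and Flt3- fractions of the classical monocytes of mouse bone marrow (BM), and their transcriptomes were compared here on 6 of the 9 arrays of the series, 3 of each. The label of a group chose its arrays. All cells came from C57Bl/6 mice of 8 weeks at steady state and were sorted as Ly6Chi CD115+ cells, R1 as Flt3-CD11c- and R2 as Flt3+CD11c-. The other 3 arrays hold R3, the Flt3+CD11c+ cells of the same gate, which the study treats as precursors of dendritic cells (DCs). Arrays of the 3 populations share 3 label dates, 1 of each population to a date, so every date yields its own difference of R2 minus R1. Per the methods, the gate kept SIRPα+ cells and removed those with MHCII, cKit, or a lineage marker of B cells, T cells, natural killer cells, neutrophils, or erythroid cells. The sources used here do not give how many mice stand behind an array or what the dates mark. The p-values then cover the scatter of these arrays only, part of which may be technical.

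Ly6Chi monocytes are the short-lived cells that the BM releases into blood and that turn into macrophages and other phagocytes in tissues. They descend from dividing myeloid progenitors, which make the proteases of primary granules, and as they mature they leave the cell cycle and gain integrins, scavenger receptors, and sensors of microbes. Flt3 is a receptor tyrosine kinase of early progenitors and of the DC lineage, and its ligand drives DC development. CD115 is the receptor for colony-stimulating factor 1, the growth factor of monocytes and macrophages. Type I interferon, which many cells make at a low tonic level, induces a large set of antiviral genes.

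Values are log2 intensities, 1 probe set for each of 19937 genes, and all differences are R2 minus R1 on the log2 scale. Arrays are listed in the order of replicates 1, 2, and 3, which are the label dates. The median difference over all genes was -0.02, and the means over all genes lay between 6.53 and 6.56 in the 6 arrays. A change of cell number within a population and a change of RNA per cell cannot be told apart in sorted bulk samples. The labels were first set against the genes of the sorted proteins. *Ly6c1* and *Ly6c2*, which encode Ly6C, had no probe set among those used, so this marker was not checked. *Csf1r*, which encodes CD115, was at 11.18, 11.33, and 11.24 in R1 and at 10.95, 11.04, and 10.95 in R2, high in both and somewhat lower in R2. *Flt3* was at 6.74, 7.78, and 7.17 in R1 and at 7.70, 8.02, and 8.01 in R2. The *Flt3* ranges overlapped, although R2 was higher on each date, and the difference of 0.68 was not called (limma, standard error 0.22, adjusted p = 0.281). The CD11c gene *Itgax*, whose protein both gates lack, was at 5.06, 5.24, and 5.33 in R1 and 5.30, 6.04, and 6.18 in R2, against a mean of 10.78 in R3.

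R2 and R1 differed by small shifts in few genes. In 1 limma fit over the 9 arrays, 78 of 19937 genes had a Benjamini-Hochberg adjusted p under 0.05 and were called, which is 0.391% of all genes. Of these, 42 were higher in R2 (0.211%) and 36 lower (0.181%), and in all 78 the 3 R2 arrays lay to one side of the 3 R1 arrays. The calls were made on these same arrays, so this separation adds no support to them. The called differences were small, with a median size of 0.71 for the higher and 0.59 for the lower genes, and 2 in each direction reached 2-fold. The calls rest on few arrays, and the R3 arrays enter their error. With the 6 arrays of R1 and R2 alone, limma called 1 gene, *Tlr7*, which is not among the 78. When these 6 arrays were paired by date, 0 genes were called. No gene was called without any 1 R2 array or without any 1 date, 1 gene was called without R1 replicate 2, and 124 without R1 replicate 3. A paired fit with the label date as a block called 23 genes (0.115%), 19 of them shared with the 78. Across all genes at an unadjusted p under 0.05, limma gave 910 higher and 1219 lower genes. The balance of directions depends on the scaling, with 7 higher and 13 lower when each array was centered on its median and 67 and 50 after quantile normalization.

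Because so few single genes pass, the shifts were also described by function, as counts over gene lists beside the same counts over all genes. Of all genes, 11.0% were higher in R2 on all 3 dates and 16.2% lower. All 3 R2 arrays lay above all 3 R1 arrays for 5.44% of genes and below for 7.99%. The lists were written from general knowledge and chosen with earlier results of these arrays known, so they carry no test of their own.

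**Figure D1:**
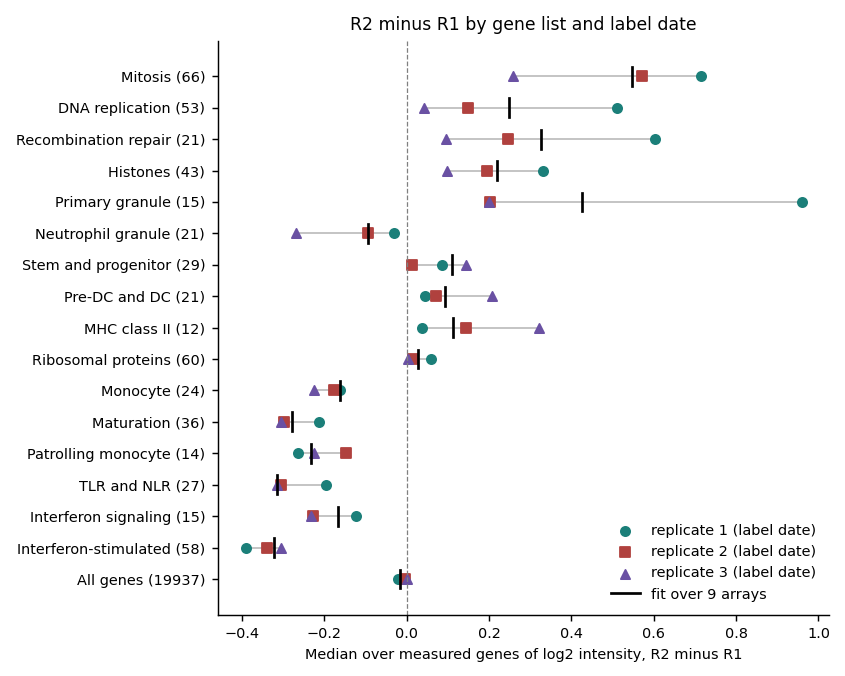
Median over the measured genes of each list of the log2 difference R2 minus R1, with the number of genes in brackets. Colored symbols are the 3 label dates and the black bar is the median of the fit over 9 arrays, at 0.55 for mitosis, -0.32 for interferon-stimulated genes, and -0.02 for all genes.

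Genes of mitosis were higher in R2, and among the lists described they held the most calls. Of 66 measured mitosis genes, 62 were higher in R2 on all 3 dates and none was lower on all 3. In 60 of them the R2 arrays lay above all R1 arrays, against 5.44% of all genes. The median difference was 0.55, and it was 0.71, 0.57, and 0.26 on the 3 dates. The 12 called members were all higher. With the date as a block 3 of the 66 were called, *Cenpf*, *Prc1*, and *Pimreg*. The mean over the list was 9.26, 9.49, and 9.73 in the R1 arrays and 9.998, 10.04, and 10.02 in the R2 arrays. The R2 arrays were thus nearly level, and the differing size by date lay in the R1 arrays, of which replicate 1 was lowest and replicate 3 highest. In R3 the list stood at 10.07, 10.12, and 10.14.

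**Figure D2:**
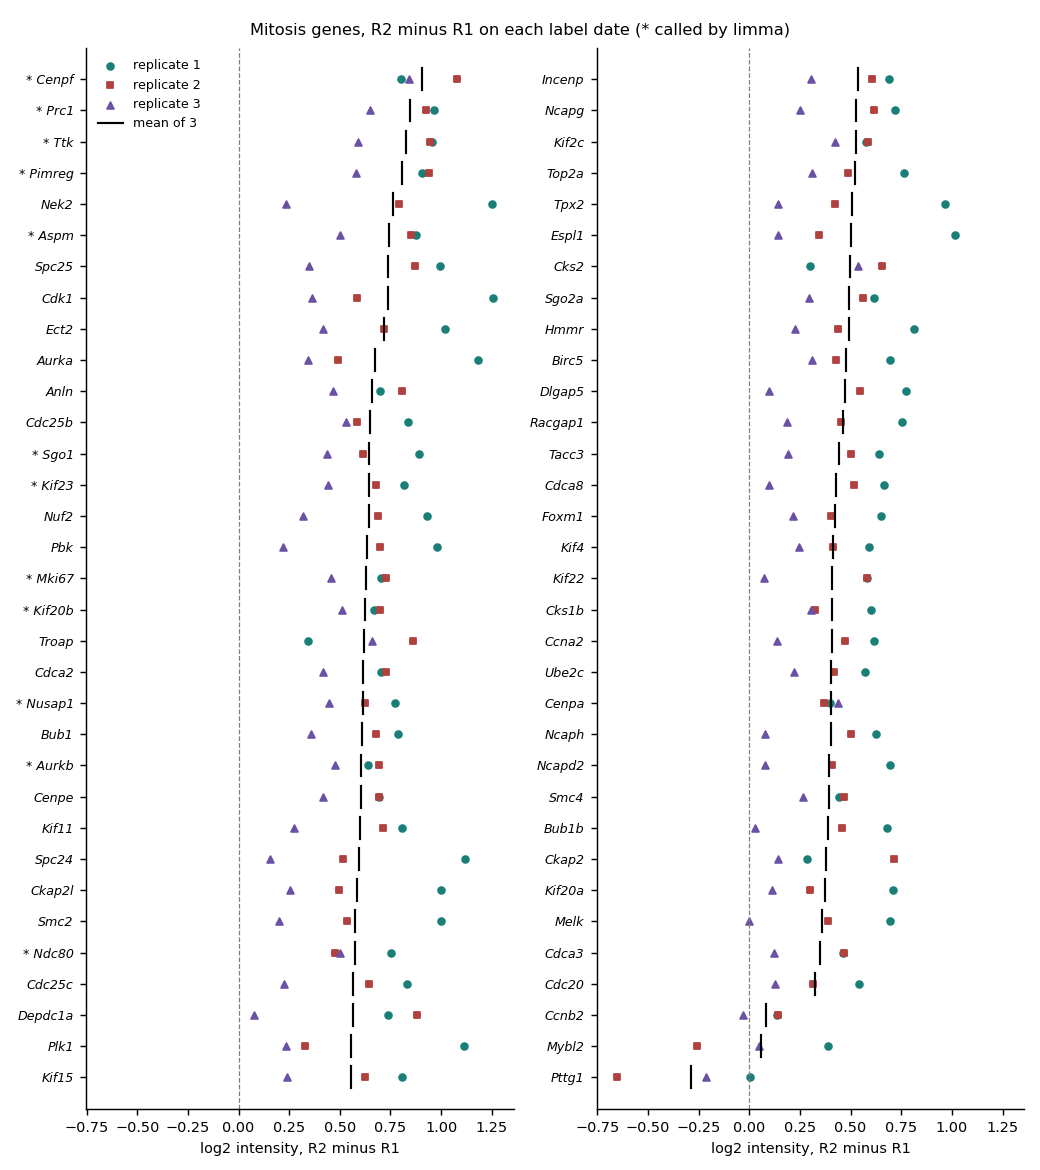
Log2 difference R2 minus R1 on each label date (symbols) and its mean (black bar) for the 66 measured mitosis genes, in descending order from upper left to lower right. Of the 66 genes, 62 lie right of 0 on all 3 dates, and *Pttg1* at the lower end has a mean of -0.29.

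The promoters of many of these genes share sequence elements, shown here for 4 called genes that hold them. Many genes of late cell cycle are bound at a cell cycle genes homology region (CHR, letters TTTGAA) and at CCAAT boxes, which recruit the DREAM and MuvB complexes and the factor NF-Y. Windows from 250 bases before to 50 after a start were taken from RefSeq (GRCm38.p6). The 4 stretches below run 5′ to 3′ on the strand of the gene, and capitals mark CHR and CCAAT matches on either strand, TTTGAA or TTCAAA and CCAAT or ATTGG.
*Cenpf*, chr1:189688059-189688238, minus strand: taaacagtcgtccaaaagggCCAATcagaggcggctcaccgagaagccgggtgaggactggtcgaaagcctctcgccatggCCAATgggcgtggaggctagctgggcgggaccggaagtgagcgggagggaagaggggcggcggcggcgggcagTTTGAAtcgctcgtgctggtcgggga
*Prc1*, chr7:80294394-80294471, plus strand: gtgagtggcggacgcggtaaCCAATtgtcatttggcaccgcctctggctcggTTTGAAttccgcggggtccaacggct
*Aspm*, chr1:139454640-139454804, plus strand: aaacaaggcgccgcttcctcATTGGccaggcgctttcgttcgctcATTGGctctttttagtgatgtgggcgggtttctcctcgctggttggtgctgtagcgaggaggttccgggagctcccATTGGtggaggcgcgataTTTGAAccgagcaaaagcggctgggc
*Kif23*, chr9:61946772-61946826, minus strand: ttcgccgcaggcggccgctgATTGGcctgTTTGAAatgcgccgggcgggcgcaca
In these 4 windows the CHR starts from 5 bases before to 6 bases after the annotated start. Among the other called mitosis genes, *Sgo1* and *Nusap1* hold no CHR match, and *Aurkb* and *Pimreg* have no window. Of the 53 mitosis genes with a window, 37 (69.8%) hold a CHR match in one, against 17.3% of the 15561 measured genes with a window. For the list of DNA replication genes it was 6 of 42 (14.3%), for interferon-stimulated genes 14 of 46 (30.4%), for primary granule genes 4 of 13 (30.8%), and for maturation genes 6 of 28 (21.4%). A CHR together with a CCAAT box stood in a window of 32 mitosis genes (60.4%), against 6.9% of all. Of the CHR matches in the first listed windows of the mitosis genes, 73.5% began within 50 bases of the start, against 22.8% over all genes. A match is a description of these letters and not a measured binding site. The shares were taken over whole lists and use no R2 or R1 value.

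Kinetochore and checkpoint genes, whose products tie chromosomes to the spindle, held 4 of the 12 calls in the list. *Cenpf*, which encodes a large kinetochore protein made in late cell cycle, had log2 intensities of 8.88, 8.73, and 8.74 in R1 and 9.68, 9.81, and 9.58 in R2. The groups lay far apart, with a difference of 0.91 (limma, standard error 0.09, adjusted p = 0.0153, and 0.0388 with the date as a block). *Ttk*, a kinase of the spindle checkpoint, rose by 0.83, *Sgo1*, a protector of centromere cohesion, by 0.65, and *Ndc80*, which binds microtubules at the kinetochore, by 0.58. With the block these 3 had limma adjusted p of 0.058, 0.0629, and 0.0613. Outside the list, and named after its values were seen, *Knl1*, a scaffold of the kinetochore, was at 9.84, 10.03, and 10.05 in R1 and at 10.73, 10.86, and 10.65 in R2. It rose by 0.77 (adjusted p = 0.0164 from limma, and 0.0418 with the block). *Mad2l1*, which restrains anaphase, rose by 0.72 and *Nsl1*, a kinetochore subunit, by 0.53, both named after their values were seen (adjusted p of 0.0236 and 0.0464, and of 0.0588 and 0.0677 with the block). Of the 15 genes of this role in the list, 14 were higher on all 3 dates, and the exception was *Pttg1*, which encodes securin. It was at 9.56, 10.08, and 9.92 in R1 and at 9.56, 9.43, and 9.70 in R2, and its difference of -0.29 was not called (adjusted p = 0.468).

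Cytokinesis and spindle genes moved in the same direction. *Prc1*, which bundles microtubules of the central spindle, was at 9.41, 9.55, and 9.77 in R1 and at 10.37, 10.47, and 10.42 in R2. No R2 array came within the R1 range, and the difference was 0.85 (standard error 0.09, adjusted p = 0.0164 from limma, and 0.0418 with the block). *Kif23*, the kinesin of the central spindle, rose by 0.65, and *Cit*, a kinase of the cleavage furrow outside the list and named after its values were seen, rose by 0.80 (adjusted p = 0.0153, and 0.0418 with the block). For *Kif23* the adjusted p was 0.0354, and 0.0613 with the block. Of 7 cytokinesis genes in the list, all were higher in R2 on the 3 dates, with a median of 0.65. The spindle genes *Aspm*, *Kif20b*, and *Nusap1* were called at differences of 0.74, 0.62, and 0.61 and had adjusted p of 0.0549, 0.058, and 0.0613 with the block. All 14 genes of this role were higher in R2 on all dates, and none overlapped between the groups. *Aurkb*, the kinase of the chromosomal passenger complex, was at 10.40, 10.28, and 10.59 in R1 and at 11.04, 10.98, and 11.06 in R2, and rose by 0.60 (adjusted p = 0.0281, and 0.0594 with the block). *Mki67*, which encodes the proliferation marker Ki-67, was at 11.03, 11.02, and 11.17 in R1 and at 11.73, 11.74, and 11.63 in R2. It rose by 0.63 (standard error 0.07, adjusted p = 0.0164), and with the block its adjusted p was 0.0549.

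The kinases and cyclins that drive entry into mitosis varied more between the R1 arrays, and none of 16 was called by limma (14 higher and 0 lower at an unadjusted p under 0.05). *Cdk1*, the kinase of mitotic entry, was at 9.36, 10.12, and 10.31 in R1 and at 10.61, 10.71, and 10.67 in R2, so R1 replicate 1 stood apart from the other R1 arrays. Its mean difference was 0.74 (standard error 0.20, adjusted p = 0.2 from limma), with 1.26 on the first date and 0.37 on the third. *Aurka* (0.67), *Plk1* (0.56), and *Ccna2* (0.41) were likewise highest on the first date and smallest on the third, without overlap. *Ccnb2*, a B-type cyclin, differed by 0.08, and its arrays overlapped. *Top2a*, which untangles replicated DNA, was 0.52 higher with an adjusted p of 0.0882.

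**Figure D3:**
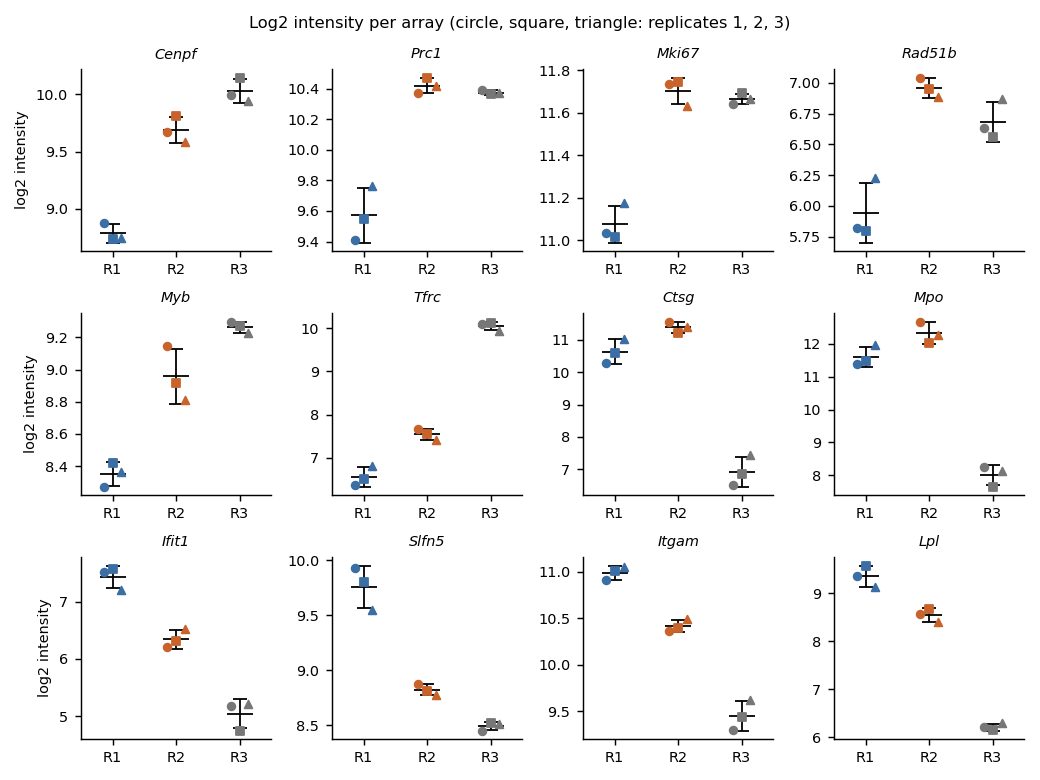
Log2 intensity of 12 genes in each array of R1, R2, and R3. Symbols are the replicates and black bars the mean ± SD of 3 arrays, and the vertical scale differs by gene. *Mki67* and *Prc1* stand at about the same height in R2 and R3, whereas *Ctsg* is at a mean of 6.93 in R3.

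Genes of DNA replication shifted less and mainly on 1 date. Of 53 measured, 28 were higher in R2 on all 3 dates and 1 lower, with medians of 0.51, 0.15, and 0.04 by date and 0.25 in all. The R2 arrays lay above the R1 arrays for 16 genes, against 5.44% of all genes. Without R1 replicate 1 the median was 0.11. No gene of the list was called higher and 1 was called lower, at 14 higher and 1 lower by an unadjusted p under 0.05. The called gene was *E2f2*, an activator of S phase genes, at 9.60, 9.62, and 9.62 in R1 and 9.26, 9.20, and 9.18 in R2. It fell by 0.40 (standard error 0.07, adjusted p = 0.0469 from limma, and 0.0935 with the block). Among higher members, *Orc6*, a subunit of the origin recognition complex, differed by 0.64 and *Prim1*, the DNA primase, by 0.56 (adjusted p of 0.15 and 0.0871). *Mcm2*, a subunit of the replicative helicase, was at 8.28, 8.93, and 9.25 in R1 and at 8.997, 8.78, and 8.97 in R2. The R2 values lay within the R1 range, and the sign of its difference of 0.09 depended on the R1 replicate 1 array. *Dtymk*, which makes thymidine diphosphate and was named after its values were seen, was called at 0.40 (adjusted p = 0.0469, and 0.104 with the block).

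Histone genes and repair genes also held more members that were higher in R2 than lower. Of 43 measured histone genes, 21 were higher in R2 on all 3 dates and 1 lower. In 20 the R2 arrays lay above the R1 arrays, against 5.44% of all genes. The median was 0.22. *H1f1*, a linker histone, was at 10.39, 10.77, and 10.69 in R1 and at 11.17, 11.27, and 11.22 in R2 and rose by 0.60 (adjusted p = 0.0469 from limma, and 0.0795 with the block). Histone genes are near-identical copies of each other, so their probe sets may share signal. Of 21 genes of recombination repair, 12 were higher on all dates and none lower, with a median of 0.33. *Rad51b*, which acts in the repair of DNA breaks, was at 5.82, 5.79, and 6.23 in R1 and at 7.04, 6.95, and 6.88 in R2. It rose by 1.01 (standard error 0.13, adjusted p = 0.0236, and 0.0418 with the block). *Fancd2* (0.64), *Bard1* (0.55), and *Rad54b* (0.54), all of the repair of broken or crosslinked DNA, were higher without overlap and were not called (adjusted p from 0.0986 to 0.119). *Neil3*, a DNA glycosylase named after its values were seen, rose by 0.79 (adjusted p = 0.0464, and 0.0838 with the block). The 29 measured genes of ribosome biogenesis had a median of -0.07, and the 60 genes of ribosomal proteins one of 0.03.

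Primary granule genes tended higher in R2, but none of 15 was called. Of the 15, 8 were higher on all 3 dates and 3 lower, with a median of 0.42 that was 0.96, 0.20, and 0.20 by date and 0.16 without replicate 1 of all populations. No adjusted p was under 0.05 in limma, and 6 were higher and 0 lower at an unadjusted p under 0.05. *Mpo*, which encodes myeloperoxidase, was at 11.39, 11.49, and 11.96 in R1 and at 12.68, 12.04, and 12.27 in R2, a difference of 0.72 (standard error 0.22, adjusted p = 0.245). The 3 R2 arrays of *Mpo* lay above the R1 arrays, and the gap was widest on the first date. *Elane*, neutrophil elastase, was at 10.42, 10.59, and 11.01 in R1 and at 11.57, 11.33, and 11.22 in R2, a difference of 0.69 (adjusted p = 0.17). *Ctsg*, cathepsin G, was at 10.27, 10.59, and 11.03 in R1 and at 11.56, 11.20, and 11.38 in R2, 0.75 apart (adjusted p = 0.288). In these 3 genes and *Prss57* the groups did not overlap. *Ms4a3*, a membrane protein of granulocyte and monocyte progenitors, had the largest difference of the list, 1.12, from 7.23, 7.48, and 8.33 in R1 and 9.17, 8.33, and 8.91 in R2 (adjusted p = 0.171). Its groups met at 8.33, and the difference was 1.94 on the first date and 0.58 on the third. In R3, *Mpo*, *Elane*, *Ctsg*, and *Ms4a3* were at means of 8.01, 7.21, 6.93, and 5.63, below their R1 and R2 levels.

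Genes of later neutrophil granules did not follow the primary granule genes. Of 21, 5 were higher on all dates and 8 lower, with a median of -0.09, and none was called (1 higher and 3 lower at an unadjusted p under 0.05 in limma). *Padi4*, an enzyme that converts arginine to citrulline, was at 7.87, 8.12, and 7.54 in R1 and at 6.92, 7.32, and 6.73 in R2 (adjusted p = 0.152). *Cd177*, a surface protein of neutrophils, was at 9.88, 10.07, and 9.61 in R1 and at 9.17, 9.38, and 8.95 in R2 (adjusted p = 0.136). Both were lower in R2 on every date and without overlap, by -0.85 and -0.68. *Camp*, the cathelicidin of secondary granules, spread from 5.83 to 7.52 in R1 and from 6.71 to 8.58 in R2. *Ly6g*, excluded by the gate, was between 4.39 and 5.03 in R1 and between 4.21 and 4.40 in R2.

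Progenitor genes showed a few higher members and little shift as a list. Of 29 genes of stem and progenitor cells, 11 were higher in R2 on all dates and 2 lower, with a median of 0.11 that fell to 0.03 when each array was centered on its median. *Myb*, a transcription factor that keeps progenitors dividing, was at 8.27, 8.42, and 8.36 in R1 and at 9.15, 8.92, and 8.81 in R2. All R2 arrays stood above R1, and *Myb* rose by 0.61 (standard error 0.09, adjusted p = 0.039 from limma, and 0.0677 with the block). *Cd34*, a sialomucin of progenitors, was at 7.55, 8.37, and 7.36 in R1 and at 9.31, 8.63, and 7.97 in R2. The ranges overlapped, and the difference of 0.88 was not called (adjusted p = 0.403). *Cd27*, a member of the tumor necrosis factor receptor family, was at 6.51, 5.74, and 5.91 in R1 and 6.75, 6.52, and 6.69 in R2. *Cdk6*, a kinase of G1 phase, was at 7.78, 7.98, and 8.49 in R1 and 8.68, 8.69, and 8.51 in R2. Both were higher without overlap and not called (adjusted p of 0.268 and 0.285). *Kit*, whose protein was excluded by the gate, differed by 0.25 with overlapping arrays. *Tfrc*, the transferrin receptor that brings iron into dividing cells, was at 6.37, 6.51, and 6.82 in R1 and at 7.67, 7.56, and 7.41 in R2 and rose by 0.98 (adjusted p = 0.0236, and 0.0601 with the block). It stood at a mean of 10.05 in R3.

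**Figure D4:**
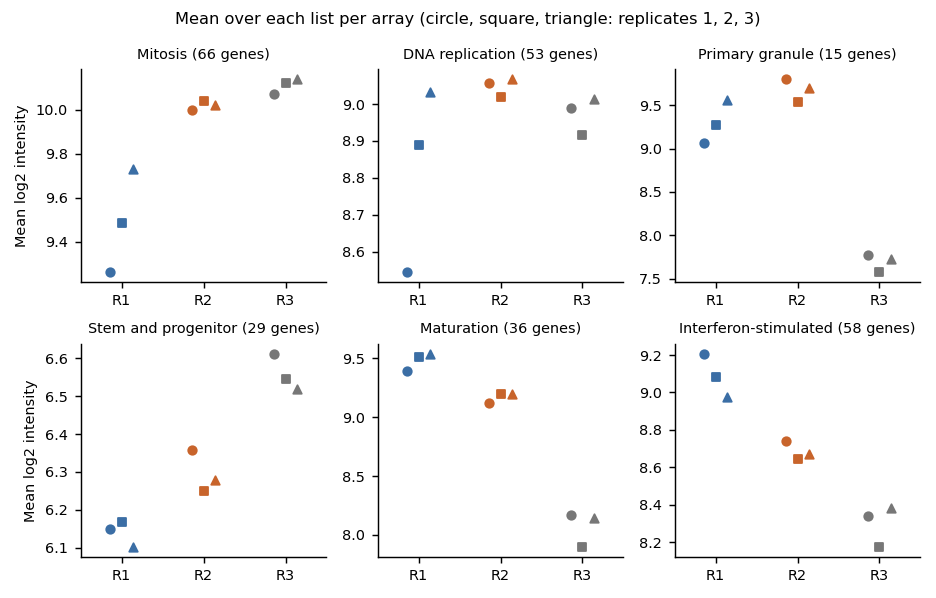
Mean log2 intensity over the measured genes of 6 lists in each array of R1, R2, and R3, with the replicates as symbols. The mitosis list is between 9.26 and 9.73 in R1 and between 9.998 and 10.04 in R2, and the interferon-stimulated list is between 8.98 and 9.21 in R1 and between 8.64 and 8.74 in R2.

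Interferon-stimulated genes were lower in R2. Of 58 measured, all had a mean that was lower in R2, 44 were lower on all 3 dates against 16.2% of all genes, and none was higher on all 3. In 33 the R2 arrays lay below all R1 arrays, against 7.99% of all genes. The median was -0.32, and it was nearly equal by date at -0.39, -0.34, and -0.30. Called lower were 4, *Ifit1*, *Slfn5*, *Ddx58*, and *Isg20*, and none was called higher. With the block only *Slfn5* remained called. The direction of the list median was the same without any 1 array or date, after centering (-0.40), and after quantile normalization (-0.35).

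Promoter stretches of 3 called genes are shown for the interferon-stimulated response element (ISRE), an element of many promoters that interferon induces. Capitals mark matches to GAAA, any 2 bases, and GAAA, on either strand, and the stretches run 5′ to 3′ on the strand of the gene (RefSeq, GRCm38.p6).
*Ifit1*, chr19:34640765-34640833, plus strand: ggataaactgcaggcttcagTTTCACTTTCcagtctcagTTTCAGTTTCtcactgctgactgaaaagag
*Ddx58*, chr4:40239794-40239843, minus strand: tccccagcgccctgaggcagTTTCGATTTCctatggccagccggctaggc
*Slfn5*, chr11:82951927-82951976, plus strand: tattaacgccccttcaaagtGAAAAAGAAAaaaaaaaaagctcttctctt
The *Ifit1* window holds 2 matches, which begin 104 and 85 bases before the start, whereas that of *Ddx58* begins 2 bases after it and that of *Slfn5* 155 bases before it. Of the 46 interferon-stimulated genes with a window, 20 (43.5%) hold a match, against 3.89% of all 15561 genes. For the list of maturation genes it was 8 of 28 (28.6%), for primary granule genes 1 of 13 (7.69%), for mitosis genes 4 of 53 (7.55%), and for DNA replication genes 0 of 42. The *Slfn5* stretch also holds the CHR letters on the other strand, 163 bases before the start. The *Isg20* windows hold no match. As above, a match describes letters and is not a measured binding site. The list was written as genes that interferon induces, and its share uses no R2 or R1 value.

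*Ifit1*, which encodes a protein that binds foreign RNA, had log2 intensities of 7.52, 7.57, and 7.21 in R1 and 6.20, 6.31, and 6.53 in R2. It fell by 1.09 (standard error 0.15, adjusted p = 0.0282 from limma, and 0.0629 with the block), with no overlap. *Slfn5*, a Schlafen family member, was at 9.93, 9.80, and 9.55 in R1 and at 8.87, 8.81, and 8.77 in R2, and fell by 0.94 (standard error 0.10, adjusted p = 0.0153, and 0.0418 with the block). *Ddx58*, which encodes the RNA sensor RIG-I, was at 8.38, 8.35, and 8.10 in R1 and at 7.34 in each R2 array. Its difference was -0.94 (adjusted p = 0.0236), and since the 3 deposited R2 values are identical, R2 adds no spread to its error. *Isg20*, an exonuclease, was at 7.66, 7.60, and 7.56 in R1 and at 6.997, 7.11, and 7.10 in R2 and fell by 0.54 (adjusted p = 0.0236). With the block the adjusted p of *Ddx58* was 0.0613 and that of *Isg20* 0.0594. Each of these 4 stood lower still in R3, at means of 5.04, 8.49, 6.48, and 6.35.

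**Figure D5:**
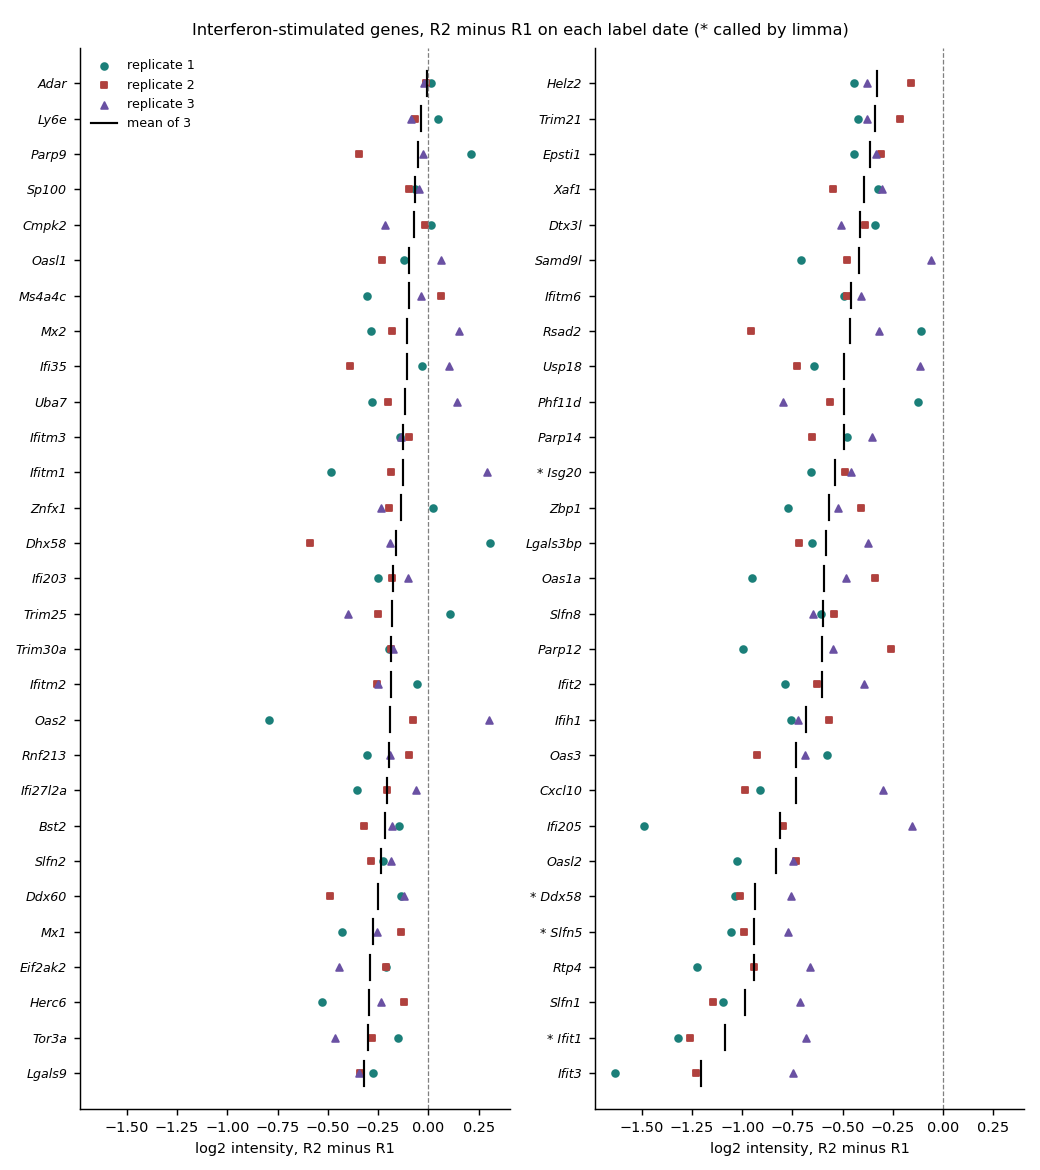
Log2 difference R2 minus R1 on each label date (symbols) and its mean (black bar) for the 58 measured interferon-stimulated genes, in descending order from upper left to lower right. All 58 means lie left of 0, from *Adar* at -0.01 to *Ifit3* at -1.20.

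By role, the Schlafen genes had the lowest median (-0.77, 4 of 4 lower on all dates), followed by the Ifit and Oas families (-0.67, 6 of 8) and the sensors of foreign nucleic acid (-0.57, 6 of 7). The Ifitm family, which blocks viral entry, had a median of -0.16. *Ifit3* had the largest difference, -1.20, from 10.20, 9.77, and 8.89 in R1 to 8.57, 8.54, and 8.15 in R2, and was not called (standard error 0.32, adjusted p = 0.176 from limma). Its R1 arrays spread over more than 1 log2 unit. *Slfn1* (-0.98), *Rtp4* (-0.94), *Oasl2* (-0.83), *Oas3* (-0.73), *Ifih1* (-0.68), and *Ifit2* (-0.60) were lower on every date without overlap and were not called, at adjusted p from 0.0821 to 0.229. *Ly6e* and *Adar*, at differences of -0.04 and -0.01, overlapped between the groups. *Ube2l6*, the conjugating enzyme of the ubiquitin-like protein ISG15, is not in the list but among the 10 largest called decreases, at 7.88, 8.05, and 7.78 in R1 and 7.35, 7.15, and 7.26 in R2 (adjusted p = 0.0469, and 0.0801 with the block).

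Genes of interferon signaling itself shifted less. Of 15 receptors, kinases, and transcription factors, 10 were lower on all dates and none higher, with a median of -0.17 and no calls (5 lower and 0 higher at an unadjusted p under 0.05 in limma). *Irf7*, the factor that amplifies the interferon response, was at 9.06, 8.82, and 8.55 in R1 and at 8.83, 8.29, and 8.09 in R2, and these ranges overlapped. *Jak1* (-0.26), *Irf2* (-0.30), *Ifngr1* (-0.29), and *Irf1* (-0.38) did not overlap and had adjusted p from 0.164 to 0.405. Of 8 interferon-inducible GTPases measured, 4 were lower on all dates, among them *Irgm1* at -0.42 (adjusted p = 0.42). The 8 genes had a median of -0.20, with no call in limma and 2 lower and 0 higher at an unadjusted p under 0.05.

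Maturation genes were lower in R2. Of 36 genes of adhesion, phagocytosis, and lysosome function, 26 were lower on all 3 dates and 1 higher. In 16 the R2 arrays lay below R1, against 7.99% of all genes. The median was -0.28 (-0.21, -0.30, and -0.30 by date). *Lpl*, lipoprotein lipase, was at 9.37, 9.58, and 9.13 in R1 and at 8.57, 8.68, and 8.40 in R2 and fell by 0.81 (standard error 0.12, adjusted p = 0.0341 from limma, and 0.0601 with the block). *Klf2*, a factor of quiescence and migration, was at 8.999, 9.22, and 9.22 in R1 and at 8.49, 8.49, and 8.66 in R2 and fell by 0.60 (adjusted p = 0.0354, and 0.0641 with the block). Both sets of arrays were fully apart. *Adgre1*, which encodes a surface antigen of macrophages, was at 9.92, 9.92, and 10.04 in R1 and at 9.22, 9.29, and 9.18 in R2, an even difference on each date that was not called (-0.73, adjusted p = 0.136). *Clec4e*, the receptor Mincle for mycobacterial glycolipid, differed by -0.96, *Msr1*, a scavenger receptor, by -0.58, and *Itgb2*, the common β2 integrin chain, by -0.39, each without overlap (adjusted p of 0.232, 0.257, and 0.0756).

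Monocyte genes split between those that were level and those lower in R2. Of 24 genes, 15 were lower on all dates and 1 higher, with a median of -0.16. *Ccr2*, the receptor for exit from BM, was at 12.19, 12.23, and 12.21 in R1 and at 12.10, 12.21, and 12.08 in R2, and *Spi1*, the myeloid factor PU.1, differed by -0.03, and both overlapped. *Itgam*, which encodes CD11b, was at 10.91, 11.01, and 11.06 in R1 and at 10.37, 10.40, and 10.49 in R2. It fell by 0.58 (standard error 0.09, adjusted p = 0.0459 from limma, and 0.0549 with the block), with nearly the same difference on each date. *Clec4a3* (-0.77) and *Clec4a1* (-0.64), inhibitory lectins, *Cx3cr1* (-0.45), the fractalkine receptor, *Sirpa* (-0.31), and *Csf1r* (-0.27) were lower without overlap and not called, at adjusted p from 0.151 to 0.259. The gene higher on all dates was *Irf8*, a factor of monocytes and DCs, at 10.45, 10.68, and 10.69 in R1 and 11.03, 10.95, and 10.86 in R2 (adjusted p = 0.226). *Vcan* ranged from 8.79 to 10.56 in R1 and from 8.22 to 10.01 in R2, and *Cd14* from 7.60 to 8.77 and from 7.06 to 7.96. In both genes replicate 3 was the highest array of its group, so the ranges overlapped although R2 was lower on each date.

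Sensors of microbes were lower in R2, with no call. Of 27 Toll-like receptor (TLR), NOD-like receptor (NLR), and adaptor genes, 19 were lower on all 3 dates and none higher. The R2 arrays lay below R1 in 14, against 7.99% of all genes. The median was -0.31, and at an unadjusted p under 0.05 in limma 13 were lower and 0 higher. *Tlr7*, which senses single-stranded RNA in endosomes, was at 8.81, 8.73, and 8.87 in R1 and at 7.72, 7.65, and 7.62 in R2. The difference of -1.14 was several times the spread within each group, yet it was not called (standard error 0.31, adjusted p = 0.2). The error of the fit pools the spread of the R3 arrays, whose SD for *Tlr7* was 0.80. With the 6 arrays of R1 and R2 alone *Tlr7* was the only gene called (adjusted p = 0.0254 from limma), and it was not called when these were paired by date (adjusted p = 0.15). *Tlr13*, a sensor of bacterial ribosomal RNA, was at 11.01, 10.97, and 11.01 in R1 and 10.19, 10.26, and 10.26 in R2, likewise apart and not called (adjusted p = 0.226). *Tlr8* (-0.74), *Tlr2* (-0.72), the adaptor *Myd88* (-0.48), and the factor *Irf5* (-0.31) were lower on all dates without overlap (adjusted p of 0.419, 0.0746, 0.157, and 0.193). Of 14 genes of patrolling monocytes, 10 were lower on all dates, and *Nr4a1*, the factor their development needs, was at 8.68, 8.35, and 8.35 in R1 and at 7.79, 7.89, and 7.48 in R2 (adjusted p = 0.136). *Ace* and *Treml4*, markers of those cells, differed by -0.67 and -0.62 with overlapping arrays.

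Genes of pre-DCs and DCs were more often higher in R2 than lower. Of 21 such genes, 9 were higher on all dates and 4 lower, against 11.0% and 16.2% of all genes. The median was 0.09, and at an unadjusted p under 0.05 in limma 7 were higher and 3 lower. Centering each array on its median moved the median over all genes from -0.02 to -0.10. Small list medians such as this one and that of the MHCII genes below thus depend on the scaling. The called members were *Clec9a*, the receptor DNGR-1 for dead cells, and *Kmo*, an enzyme of tryptophan breakdown. *Clec9a* was at 5.87, 6.39, and 6.02 in R1 and at 7.77, 8.05, and 8.05 in R2, the largest called difference (1.87, adjusted p = 0.0132 from limma, and 0.0226 with the block). *Kmo* was at 7.47, 7.30, and 7.40 in R1 and at 8.07, 8.01, and 8.21 in R2, and rose by 0.71 (adjusted p = 0.0231, and 0.0594 with the block). The R3 means of both genes were higher by several log2 units, at 11.19 for *Clec9a* and 11.05 for *Kmo*. *Cd7* was at 5.49, 6.96, and 6.17 in R1 and at 7.37, 8.09, and 8.56 in R2, and *Klrd1*, a lectin-like receptor, was at 4.50, 4.93, and 5.06 and at 5.51, 6.20, and 6.61. Both were higher without overlap and not called (adjusted p of 0.0944 and 0.0993). *Zbtb46*, a transcription factor of the DC lineage, was at 5.80, 5.77, and 6.02 in R1 and at 5.85, 5.84, and 6.02 in R2, against a mean of 6.84 in R3. *Irf4* was lower on each date with overlapping arrays (-0.52). *Cd209a*, a lectin of monocyte-derived DCs, was at 7.49, 8.70, and 6.79 in R1 and at 8.79, 8.97, and 8.04 in R2 (adjusted p = 0.495). The R1 arrays of *Cd209a* spread over more than the difference between the groups. The 16 genes of monocyte-derived DCs had a median of -0.04, with 2 higher and 2 lower on all dates, and the 15 genes of plasmacytoid DCs one of 0.13, with 6 higher and 3 lower. No gene of either list was called by limma, and at an unadjusted p under 0.05 the counts were 1 higher and 1 lower, and 1 higher and 0 lower.

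MHCII genes, which present antigen to CD4+ T cells, were higher on all dates in 4 of 12 and lower in none, with a median of 0.11. There was no call in limma (1 higher and 1 lower at an unadjusted p under 0.05). The gate removed cells with MHCII, so these values describe only the cells that remained. *H2-Aa*, the class II α chain, spread from 7.50 to 9.35 in R1 and from 7.84 to 9.76 in R2. *H2-Oa*, a chain of the peptide editor DO, did not overlap (0.51, adjusted p = 0.27), and *Ciita*, the class II transactivator, differed by 0.19. On a linear scale the R2 mean had covered 2.41% (median) of the distance between R1 and R3 over the 14 DC genes at least 0.5 higher in R3 than in R1 (log2), and 6.91% over 8 MHCII genes. Over the 50 mitosis genes past the same minimum it was 77.7%, and over all 1153 genes past it 11.7%. R1 enters both ends of these ratios, and they are a description with no test.

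The 10 largest called differences in each direction, among genes with 1 sign on the 3 dates, held further genes outside the lists. Higher in R2 were *Gria3*, a glutamate receptor subunit, at 9.45, 9.46, and 9.72 in R1 and 10.47, 10.60, and 10.42 in R2 (0.95, adjusted p = 0.0153 from limma), *G2e3*, a ubiquitin ligase of late cell cycle (0.88), *Carmil1*, a regulator of actin capping (0.88), and *Hyls1*, a centriole protein (0.86). Lower were *Tcp11l2*, at 8.58, 8.71, and 8.56 in R1 and 7.42, 7.36, and 6.98 in R2 (-1.36, adjusted p = 0.0262, and 0.0388 with the block), *Acta2*, smooth muscle actin (-0.81), *Rras*, a small GTPase of integrin signaling (-0.71), *Trim62*, a ubiquitin ligase (-0.70), and *Marcks*, a substrate of protein kinase C (-0.69). None of these overlapped between the groups, as held for all called genes. With the block *G2e3*, *Carmil1*, and *Rras* had adjusted p of 0.0629, 0.0834, and 0.0594, and the others named here remained called. Among smaller decreases, named after their values were seen, were *Ltb4r1*, the receptor for leukotriene B4 (-0.58), *P2ry6*, a receptor for uridine diphosphate (-0.60), *Gab3*, an adaptor of the CSF1 receptor (-0.63), *Cnr2*, a cannabinoid receptor of leukocytes (-0.62), and *Casp4*, the caspase that senses lipopolysaccharide (-0.54). Their adjusted p lay between 0.0316 and 0.0469, and with the block between 0.0613 and 0.0908.

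Markers of cells outside the gate were set beside these shifts. The lists of B cells, T cells, natural killer cells, eosinophils, and basophils and mast cells had medians from -0.02 to 0.05, and none of their genes was called. At an unadjusted p under 0.05 in limma, 4 of these 56 genes were higher and 1 lower. The summed linear intensity of the 14 B cell genes was 821 to 897 in R1 and 829 to 914 in R2, that of the 12 T cell genes 480 to 556 and 525 to 530, and that of the 12 natural killer cell genes 266 to 317 and 288 to 317. *Mcpt8*, a granule protease of basophils and their progenitors, was at 5.95, 6.32, and 6.60 in R1 and 7.48, 7.43, and 7.24 in R2, without overlap and not called (adjusted p = 0.219). Of the 11 basophil and mast cell genes, 5 had a higher mean in R2 and 6 a lower one. Their summed linear intensity was 2390 to 2610 in R1 and 2130 to 2340 in R2. In the erythroid list only *Tfrc* was called, and the other 9 measured genes differed by -0.07 to 0.30. The 9 megakaryocyte genes summed to 880 to 1190 in R1 and 725 to 2530 in R2. Their median was 0.15, 8 had a higher mean in R2 and 1 a lower one, and limma called 0. *Ppbp*, a platelet chemokine, was at 5.45, 8.38, and 7.75 in R1 and at 6.27, 10.12, and 9.78 in R2. It was higher in R2 on each date, with a mean difference of 1.53, overlapping arrays, and no call. Replicates 2 and 3 of both populations stood apart from replicate 1. In the list of resident macrophages *Hmox1*, which breaks down heme, was at 10.43, 10.50, and 10.76 in R1 and at 9.66, 9.74, and 10.01 in R2 (adjusted p = 0.17). The defining members *Vcam1* and *C1qa* differed by 0.07 and 0.10. The part of other cells in the shifts described above was not tested.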

How the data were processed

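RNA of sorted cells (1 ng per sample) was amplified with the NuGEN Ovation Pico system and measured on whole-transcript gene arrays of Affymetrix for the mouse. The values deposited by the authors are intensities on a linear scale, with array medians from 58.0 to 64.7, and their background correction and normalization are not given in the sources used here. A log2 transform was applied to these deposited intensities. Of 34760 probe sets, 21640 had 1 gene symbol in the platform annotation, 1321 several, and 11799 none, and only those with 1 were used. The brightest probe set on average stood for a gene, which gave 19937 genes, 1202 of them with a value that was identical in the 3 arrays of a population.

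The 9 arrays were grouped by their labels and fitted with limma 3.58.1 in R 4.3.3 (lmFit and eBayes), with the contrast R2 minus R1 and Benjamini-Hochberg adjustment over all genes, called at 0.05. The study's methods used an unpaired t-test, which was run as an alternative, as were a label date block, other scalings, offsets, filters, and probe set rules, and the removal of each array or date. Each date holds 1 array of each population, and the deviations of R1 and R2 arrays of 1 date from their group means correlated at 0.004, 0.152, and 0.097. The number of arrays limits the precision. The code was checked on artificial data with known answers.

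Genes were named where they were among the 10 largest called differences in a direction with 1 sign on the 3 dates, were called members or among the 6 largest with 1 sign on the 3 dates in a gene list, or were on a short list of sorted and study markers. Others are said to be named after their values were seen, which also holds for *Ccnb2*, *Pttg1*, *Mcm2*, *Camp*, *Ly6e*, *Adar*, *Mcpt8*, *Ppbp*, *Vcam1*, *C1qa*, and *Hmox1*. The comparison, the 31 gene lists, and the tests were chosen with earlier results of these data known. Promoter windows were RefSeq sequences of GRCm38.p6, and 15561 genes had one. Figures were drawn with matplotlib 3.10.9.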

Additional observations from a re-analysis of the deposited data

How the results depend on the processing

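The count of 78 called genes depends on the arrays and the error model. It was 23 in the paired fit with the label date as a block, 20 after centering each array, 343 with array weights, and 46 with an intensity trend. With the 6 arrays of R1 and R2 alone it was 1, *Tlr7*, which is not among the 78, and 0 when these were paired by a replicate block. The methods' t-test gave 1488 at its unadjusted threshold and 1 after adjustment. With every probe set tested it was 0 in limma, with 3334 at an unadjusted p under 0.05. Leaving out 1 array or 1 date gave 0 to 124, with 0 without any R2 array or any date, 1 without R1 replicate 2, 36 without R1 replicate 1, and 10 without R3 replicate 1. Of 47 called genes named, 45 stayed called after quantile normalization and 14 with the block, which changed no call among the 79 others named. The median of every list was recomputed, and 6 are reported here. They are those of mitosis, DNA replication, primary granule, stem and progenitor, maturation, and interferon-stimulated genes. These 6 kept their sign in the settings run. The stem and progenitor median of 0.11 was 0.029 after centering, 0.036 after quantile normalization, 0.254 without dim genes, and 0.042 to 0.134 on leaving out an array or date. The maturation median of -0.28 was -0.36 after centering. The interferon-stimulated median of -0.32 was -0.405 after centering and -0.367 to -0.297 on leaving out an array or date. *Mcm2* turned to -0.066 with array weights and ranged from -0.218 to 0.31 on leaving out an array or date. *Zbtb46* turned to -0.041 after centering and -0.034 after quantile normalization and ranged from -0.02 to 0.118 on leaving out an array or date, and *Spi1* ranged from -0.136 to 0.026. *Vcam1* turned to -0.009 after centering. The cause of these changes was not tested.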

Other observations

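Genes picked by symbols of small nucleolar RNAs, most of which guide the modification of ribosomal RNA, had a median difference of 0.32 over 55 measured members. By date the medians were 0.12, 0.36, and 0.39. The match by symbol also took in *Snorc*, which encodes a protein, and genes of the related Scarna RNAs. Of these 55, 22 were higher on all 3 dates and 4 lower, and none was called in limma (13 higher and 1 lower at an unadjusted p under 0.05). The mean over the list was 6.51, 6.23, and 6.20 in R1 and 6.70, 6.60, and 6.60 in R2, so the list means did not overlap. Among single members the R2 arrays lay above R1 in 7 and below in 2, against 5.44% and 7.99% of all genes. The 300 microRNA genes had a median of 0.00, with 34 higher and 31 lower on all dates.

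Immediate-early genes, which are induced within minutes of a stimulus, had a median of -0.08 over 19 members. Of these, 8 were lower on all dates and 1 higher, and none was called in limma (0 higher and 4 lower at an unadjusted p under 0.05). The lowest was *Nr4a1* at -0.74, which is also in the list of patrolling monocytes.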
